A study of Caenorhabditis elegans with 22 samples.

Results

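Seam cells are the lateral epidermal cells of *Caenorhabditis elegans* larvae. The 10 genes followed here specify them, maintain them, or serve as markers of them or of their junctions. Among them are the GATA factor genes *elt-1*, *egl-18* and *elt-6*, the homeobox gene *ceh-16* and the Runx and CBFβ genes *rnt-1* and *bro-1*. The others are the nuclear receptor genes *nhr-73* and *nhr-25*, the Hairy/E(spl)-type gene *lin-22* and the apical junction gene *ajm-1*. The 10 genes were chosen by name for their known roles or use as markers. They were matched to WormBase gene IDs, 10 of the 20392 genes counted, and all 10 were found. The question was how much of each transcript the sorted cells held, and whether it changed with loss of the histone H3 lysine 9 (H3K9) methyltransferases MET-2 and SET-25.

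The study sequenced mRNA from cells that were dissociated from L3 larvae and sorted by flow cytometry, with 2 independent biological replicates in each of 11 groups. Seam cells came from *met-2(n4256)*, *set-25(n5021)*, the double mutant *met-2(n4256) set-25(n5021)* and N2, the Bristol wild type. All 4 of these carried a green reporter driven by the seam-specific SCM promoter and an AJM-1::mCherry fusion, and live cells positive for both were taken. Body wall muscle cells of the same 4 genotypes were sorted by RFP from the *myo-3* promoter, in strains with the *gwIs4* array. The negative sort of N2 gave the non-muscle cells. The remaining 2 groups were muscle with a degron tag on endogenous MET-2 and the TIR1 auxin receptor expressed from the ubiquitous *eft-3* promoter, grown from L1 to L3 with auxin, which degrades the tagged protein, or without it.

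Seam cells divide in a stem cell-like pattern at each larval stage. Usually the anterior daughter differentiates and fuses with the surrounding hypodermal syncytium, while the posterior daughter keeps the seam fate under Wnt/β-catenin asymmetry signalling. The GATA factors and CEH-16 hold the seam fate and oppose fusion, RNT-1 with its partner BRO-1 promotes division, and NHR-25 acts in epidermal differentiation and in the moulting cycle. In a bulk sorted sample, fewer cells of a type and less RNA per cell cannot be told apart.

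Seam cell libraries held 18114744 to 24752059 counts, and the other libraries 11883702 to 24355743. The number of genes with at least 10 counts was 12898 and 12118 in double mutant seam cells, 9778 and 9810 in *set-25* cells, 11217 and 10804 in *met-2* cells, and 11749 and 10927 in N2. The *met-2* transcript was at 14.03 and 15.9 CPM (counts scaled to a common library total) in *met-2* seam cells and 22.1 and 20.3 in the double mutant, against 39.3 and 37.0 in N2. The *set-25* transcript was at 17.1 and 17.3 CPM in *set-25* and 21.3 and 19.1 in double mutant seam cells, against 33.1 and 30.5 in N2. In muscle the *met-2* transcript was at 26.04 and 27.3 CPM in *met-2* and 40.9 and 35.9 in the double mutant, against 42.8 and 46.5 in N2. The *set-25* transcript was at 5.21 and 7.68 CPM in *set-25* muscle and 11.6 and 4.11 in double mutant muscle, against 10.8 and 9.74 in N2, so the double mutant overlapped N2. Counts over whole genes do not show which exons were read, and were no check of the labels. Hypodermal markers were abundant in seam cells, at 19440 to 54080 CPM summed over 12 genes with 11 of them above 1 CPM in every library. Body wall muscle markers summed to 2787 to 4776 CPM in seam cells and to 104800 to 142000 CPM in the muscle genotype libraries. The summed neuronal markers (986 to 1735 CPM in seam cells) came mostly from 1 gene, *unc-119*, at 718 to 1455 CPM.

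All 10 genes were detected in every seam cell library. The lowest count of any of them in any seam library was 48, for *lin-22*. Per kilobase of exon in N2 seam cells, *bro-1* and *elt-1* were the most abundant, at 99.7 ± 3.55 and 90.4 ± 11.9 RPKM (SD, n = 2), and their ranges overlapped. Then came *nhr-25* (62.1 ± 2.33 RPKM), *ajm-1* (46.3 ± 4.64), *egl-18* (36.9 ± 5.26), *ceh-16* (18.1 ± 0.0917), *elt-6* (15.5 ± 1.499) and *nhr-73* (13.3 ± 0.880), each above the next in both libraries. At the low end *lin-22* (6.26 ± 1.68 RPKM) and *rnt-1* (4.67 ± 1.24) overlapped. Among the 12042 genes with at least 10 counts in an N2 seam library, *bro-1* lay at percentile 91.8 and *rnt-1* at percentile 40.5. Transcript of the CBFβ gene was far more abundant than that of the Runx gene, with a *bro-1* to *rnt-1* ratio of 17.4 to 25.7 on the RPKM scale over the 8 seam libraries. The proteins were not measured. In N2 non-muscle cells that ratio was 5.00 and 6.34. The *ajm-1* level is a special case, since seam cells were selected for an AJM-1::mCherry transgene, and reads of the transgene and of the endogenous gene cannot be told apart.

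The first comparison asked how far these transcripts separated seam cells from other sorted cells of the wild type. In N2 seam cells 8 of the 10 were higher than in N2 muscle and 8 of 10 were higher than in N2 non-muscle cells, both times without *rnt-1* and *lin-22*. Against non-muscle cells the count was 4 without either N2 seam library and 5 without non-muscle replicate 2. The *nhr-25* call held in 1 of 7 alternatives (FDR = 0.175 with DESeq2), *egl-18* lost its call with any 1 of the 4 libraries left out, and *elt-1*, *ceh-16*, *bro-1* and *ajm-1* held in all 7. A gene was called at an FDR under 0.01 and a change over 2-fold, where FDR is the Benjamini-Hochberg adjusted p of edgeR's quasi-likelihood test over all genes tested. By that rule 23.6% of all 13121 genes tested were called higher in seam cells than in muscle, and 14.5% higher than in non-muscle cells. Of 11 hypodermal markers tested, 11 were called higher than in muscle and 8 higher than in non-muscle cells. The separation was thus not particular to the seam identity genes. The seam and muscle sorts used different reporter strains and separate count tables, so cell type, strain and experiment cannot be told apart in these 2 comparisons. Seam cells were also sorted for the AJM-1::mCherry transgene, so the *ajm-1* calls are no independent sign of seam identity.

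The GATA gene *elt-1*, which is needed for epidermal fate in the embryo, had 193 and 160.1 CPM in N2 seam cells. It had 2 counts in each N2 muscle library, and 39.3 and 19.5 CPM in non-muscle cells. The ratio to muscle, from summed counts, was 1226 with an exact 95% counting interval of 479 to 4502, which covers counting error only. Its fitted log2 change against non-muscle cells was 3.08 ± 0.303 (SE, edgeR FDR = 0.000126). All 3 populations were clearly separated.

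The neighbouring GATA genes *egl-18* and *elt-6*, which maintain the seam fate downstream of Wnt signalling, lie next to each other on the same strand of chromosome IV. In N2 seam cells *egl-18* had 68.0 and 55.5 CPM, against 14 and 0 counts in muscle and 11.4 and 9.18 CPM in non-muscle cells. In the same seam cells *elt-6* had 538 and 398 counts (23.6 ± 2.29 CPM, SD, n = 2), against 0 counts in both muscle libraries and 5.71 and 6.20 CPM in non-muscle cells. Measured against a floor of 3 counts per library, *elt-6* was at least 108-fold higher in seam cells than in muscle. The 2 genes kept a similar proportion across all seam libraries, with an *elt-6* to *egl-18* ratio of 0.311 to 0.444 on the RPKM scale. Non-muscle cells lay at 0.552 and 0.741, above all 8 seam libraries, and this difference was not tested.

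The engrailed homologue *ceh-16*, which restrains seam cell fusion, had 11.3 and 11.4 CPM in N2 seam cells, 0 counts in both N2 muscle libraries and 0.537 and 0.483 CPM in non-muscle cells. It was at least 52.0-fold higher in seam cells than in muscle. Against non-muscle cells the ratio of mean CPM was 22.2, the highest ratio among the 10 genes in that comparison (fitted log2 change 4.93 ± 0.645, edgeR FDR = 0.000842). In a later annotation *ceh-16* overlaps *polk-1* on the opposite strand, and reads of overlapping genes are uncertain in libraries that do not keep strand. In the 8 muscle libraries of the genotype series *polk-1* had 4 to 80 counts while *ceh-16* had 0 in all of them. That is 0.280 to 6.17 CPM of *polk-1*, against 18.01 to 50.4 CPM in the 8 seam libraries. In N2 non-muscle cells *polk-1* had 2123 and 1548 counts, and *ceh-16* had 8 and 6. The part of *polk-1* reads in the *ceh-16* counts was not tested.

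The CBFβ gene *bro-1* had 51.2 and 48.7 CPM in N2 seam cells, 0 counts in N2 muscle, at least a 229-fold difference, and 3.56 and 5.07 CPM in non-muscle cells. Its partner *rnt-1* behaved differently. It had 8.39 and 5.74 CPM in seam cells, 5.31 and 2.57 CPM in muscle and 2.15 and 2.42 CPM in non-muscle cells. The seam and muscle ranges of *rnt-1* nearly met, and the fitted log2 change between them was -0.08 with a 95% interval of -1.31 to 1.16 (edgeR FDR = 0.929). On library totals with a pseudocount of 8 that change was 0.82. Against non-muscle cells *rnt-1* was higher in both seam libraries but missed the threshold (2.11 ± 0.555, edgeR FDR = 0.0123). Muscle thus held transcript of the Runx gene with no *bro-1* count in either N2 library.

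The nuclear receptor gene *nhr-73* had 20.2 and 18.4 CPM in N2 seam cells, 0 counts in N2 muscle, at least an 88.5-fold difference, and 5.44 and 3.79 CPM in non-muscle cells. The Ftz-F1 homologue *nhr-25* had 164 and 156 CPM in seam cells and 34.5 and 20.6 CPM in non-muscle cells. One N2 muscle library held 45 counts of *nhr-25* and the other 0, and the first of these also held the 14 counts of *egl-18*. The junction gene *ajm-1* had 291 and 252 CPM in seam cells, 2.10 and 2.42 CPM in muscle, and 79.2 and 73.9 CPM in non-muscle cells. The sparsest member, *lin-22*, which limits neuronal fates in the seam lineage, had 3.89 and 2.65 CPM in seam cells, 0 counts in both muscle libraries, and 0 and 0.483 CPM in non-muscle cells. It was at least 15-fold higher than in muscle, yet its test missed the threshold against muscle (edgeR FDR = 0.0183) and against non-muscle cells (edgeR FDR = 0.0305).

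**Figure D1:**
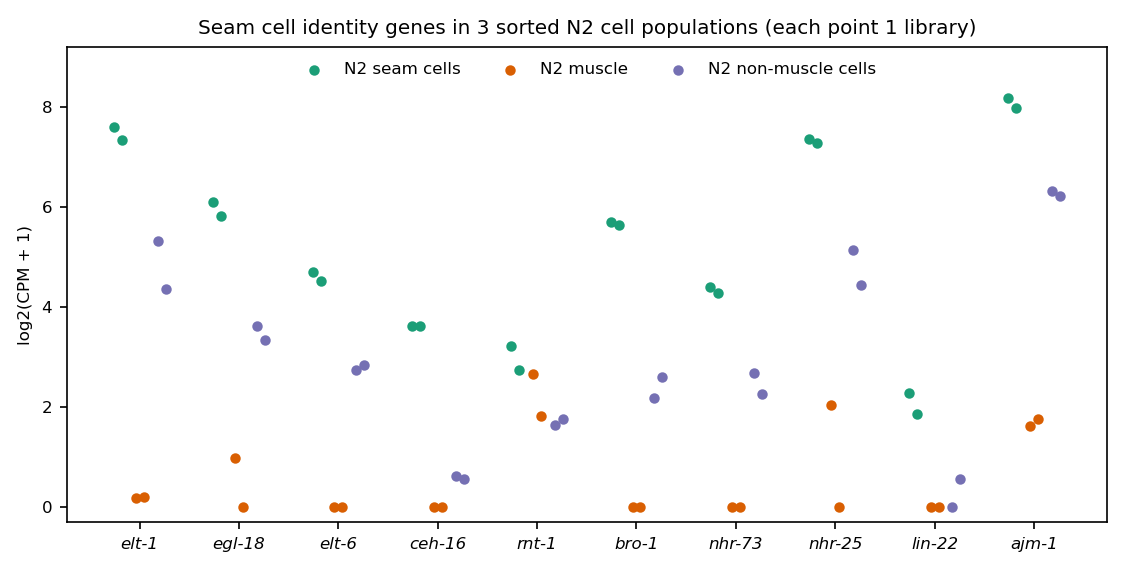
Levels of the 10 genes in N2 seam cells, N2 muscle and N2 non-muscle cells, as log2(CPM + 1) on the vertical axis, with 1 point per library. Seam cell points are the highest of the 3 populations for every gene, and muscle points lie at 0 for *elt-6*, *ceh-16*, *bro-1*, *nhr-73* and *lin-22*, whereas muscle *rnt-1* points lie just under the seam points.

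N2 muscle was also compared with N2 non-muscle cells of the same strain. Of the 8 genes that passed the filter on low counts, 5 were lower in muscle (*elt-1*, *elt-6*, *bro-1*, *nhr-73* and *ajm-1*), where 23.4% of all 12107 genes tested were called lower. The filter removed *ceh-16* and *lin-22*. For *ajm-1* the fitted log2 change was -3.58 ± 0.280 (edgeR FDR = 0.00013). *rnt-1* was the only member with a positive fitted change (2.29 ± 0.690, edgeR FDR = 0.0261), and it missed the threshold. The size of that change depended on the scaling. On library totals with a pseudocount of 8 it was 0.59. The median over all genes tested was -0.57 as fitted and -1.73 on library totals. The calls for *elt-6*, *bro-1* and *nhr-73* rest on 0 counts in muscle, and with any 1 of the 4 libraries left out the count of called members was 2 to 4, with 2 left without muscle replicate 2 or either non-muscle library. With the replicate number as a block *bro-1* (edgeR FDR = 0.0182) and *nhr-73* (edgeR FDR = 0.016) lost their calls and 3 members stayed called.

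The central comparison asked whether loss of MET-2, of SET-25 or of both changed the seam identity genes in seam cells. No member was called in either single mutant or in the double mutant against N2. Among all 12591 genes tested, 5.19% were called in *met-2* cells, 10.6% in *set-25* cells and 2.88% in the double mutant. By direction, *met-2* cells had 262 genes called higher, against 391 lower. The *set-25* calls were nearly all downward, with 1295 genes lower, against 43 higher. For the double mutant 272 genes were called higher, against 91 lower. The 2-fold rule uses library totals, where the median log2 change in *set-25* cells was -0.30. Rises were thus rarely called there, and the lack of a call says little about members that rose. In *met-2* cells 3 members, 5 in *set-25* and 2 in the double mutant had an unadjusted p under 0.05, and DESeq2 called 0 members in each of the 3. At an FDR under 0.01 with no fold threshold, 2 of 10 were higher in *set-25* (*nhr-25* and *bro-1*) and none lower, where 4.61% of all genes were higher and 10.6% lower by that rule. By the same rule 0 of 10 passed in *met-2* (2.57% of all genes higher, 3.40% lower) and 0 of 10 in the double mutant (2.19% higher, 2.15% lower).

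CPM values refer to the library total, whereas fitted changes refer to edgeR's TMM scaling. On the scale of library totals with a pseudocount of 8 the median log2 change of all genes tested was -0.14 in *met-2* cells, -0.30 in *set-25* cells and 0.26 in the double mutant against N2, 0.43 and 0.65 in the double mutant against *met-2* and against *set-25*, and 0.73 in the interaction. The 3 comparisons with N2 share the same 2 N2 libraries.

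No change of the 3 GATA genes against N2 passed the test. *elt-1* had 121 and 126 CPM in *met-2* cells, 173 and 137 in *set-25* cells, and 209.9 and 182 in the double mutant, against 193 and 160.1 in N2. Both *met-2* libraries and 1 of the 2 *set-25* libraries lay below both N2 libraries, and the fitted log2 change in *met-2* was -0.39 ± 0.151 and missed the threshold (edgeR FDR = 0.126). In the double mutant the *elt-1* change was -0.10 with a 95% interval of -0.44 to 0.24, although it was 0.15 on library totals, so its sign flips with the scaling.

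*egl-18* had 53.05 and 50.9 CPM in *met-2* cells, 64.03 and 42.6 in *set-25* cells, and 82.0 and 89.3 in the double mutant, against 68.0 and 55.5 in N2. *elt-6* had 19.5 and 19.2 CPM in *met-2* cells, 19.6 and 17.2 in *set-25* cells, and 30.1 and 25.3 in the double mutant, against 23.6 ± 2.29 in N2 (SD, n = 2). Both were highest in the double mutant on the CPM scale, although the lower double mutant library barely passed the higher N2 library for *elt-6*. The fitted changes in the double mutant were 0.23 for *egl-18* (95% interval -0.24 to 0.70, edgeR FDR = 0.523) and -0.02 for *elt-6* (-0.36 to 0.31, edgeR FDR = 0.947), and the sign of the *elt-6* change flips between the 2 scales.

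*ceh-16* too was highest in the double mutant. It had 7.71 and 9.58 CPM in *met-2* cells, 7.10 and 8.33 in *set-25* cells, and 15.6 and 12.9 in the double mutant, against 11.3 and 11.4 in N2. Single mutants lay below N2 and the double mutant above it in every library. The fitted changes were -0.26 ± 0.193 in *met-2* cells, -0.27 ± 0.193 in *set-25* cells and 0.08 ± 0.190 in the double mutant, none past the threshold (edgeR FDR = 0.409, 0.320 and 0.832). The overlapping gene *polk-1* was at 31.5 and 31.9 CPM in *met-2* cells, 18.01 and 21.2 in *set-25* cells, and 41.3 and 50.4 in the double mutant, against 32.1 and 31.5 in N2, and its part in the *ceh-16* values was not tested. *lin-22* had 2.50 and 3.02 CPM in *met-2* cells, 3.40 and 2.62 in *set-25* cells, and 4.28 and 6.93 in the double mutant, against 3.89 and 2.65 in N2. The double mutant libraries of *lin-22* were the 2 highest of the 8, but its interval was wide, -0.29 to 1.37 around a fitted change of 0.54 (edgeR FDR = 0.388).

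The nuclear receptor genes and the Runx pair had another order of groups. *nhr-25* had 221 and 219.7 CPM in *met-2* cells, 196 and 286 in *set-25* cells, and 119.6 and 133.5 in the double mutant, against 164 and 156 in N2. All 4 single mutant libraries lay above N2 and both double mutant libraries lay below it. The fitted log2 change was 0.59 ± 0.165 in *met-2* (edgeR FDR = 0.0458), 0.88 ± 0.166 in *set-25* cells (edgeR FDR = 0.00507) and -0.58 ± 0.165 in the double mutant (edgeR FDR = 0.0576). Of these 3, only the *set-25* change passed an FDR of 0.01, and none reached 2-fold on library totals.

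*nhr-73* had 20.1 and 17.5 CPM in *met-2* cells, 40.5 and 21.8 in *set-25* cells, and 12.3 and 15.95 in the double mutant, against 20.2 and 18.4 in N2. One *set-25* library was far above the other. The fitted change in *set-25* was 0.99 ± 0.296 (edgeR FDR = 0.0331), without *set-25* replicate 2 it was 1.40 and was called (edgeR FDR = 0.00286), and without *set-25* replicate 1 it was 0.43 (edgeR FDR = 0.203). In the double mutant it was -0.69 ± 0.299 (edgeR FDR = 0.185).

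*bro-1* had 49.9 and 51.5 CPM in *met-2* cells, 67.3 and 61.2 in *set-25* cells, and 50.8 and 54.7 in the double mutant, against 51.2 and 48.7 in N2. Only the *set-25* libraries stood above the rest. The fitted change there was 0.66 ± 0.132 (edgeR FDR = 0.00672), while it was 0.15 ± 0.132 in *met-2* (edgeR FDR = 0.507) and -0.17 ± 0.132 in the double mutant (edgeR FDR = 0.465). *rnt-1* had 8.67 and 7.62 CPM in *met-2* cells, 9.67 and 8.90 in *set-25* cells, and 7.31 and 6.43 in the double mutant, against 8.39 and 5.74 in N2. Its *set-25* libraries were the highest here too, with a fitted change of 0.69 ± 0.226 that missed the threshold (edgeR FDR = 0.0469).

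*ajm-1* was the one member that lay above N2 in all 6 mutant libraries on the CPM scale. It had 359 and 367 CPM in *met-2* cells, 384 and 327.5 in *set-25* cells, and 324 and 369.9 in the double mutant, against 291 and 252 in N2. The fitted changes were 0.55 ± 0.152 in *met-2* (edgeR FDR = 0.0454), 0.68 ± 0.152 in *set-25* cells (edgeR FDR = 0.0106) and 0.11 ± 0.152 in the double mutant (edgeR FDR = 0.692), so none passed.

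**Figure D2:**
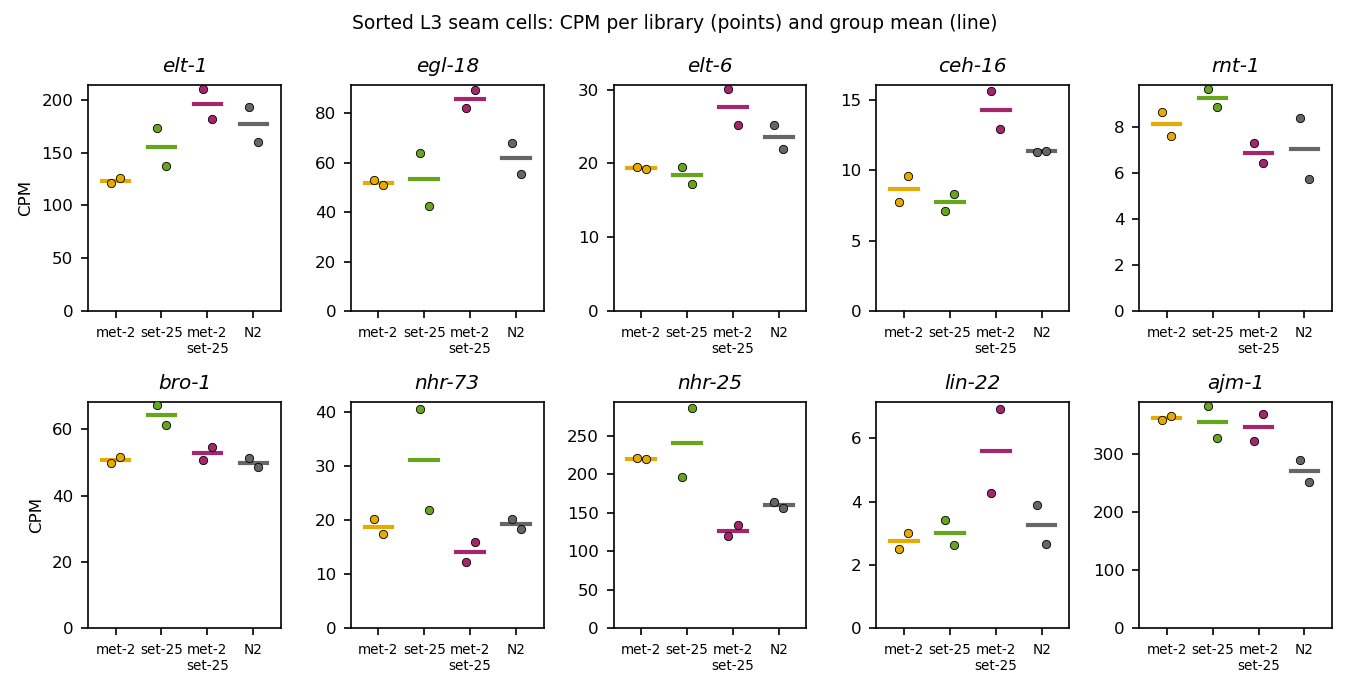
CPM of each gene in sorted L3 seam cells of *met-2*, *set-25*, the double mutant and N2, with 1 point per library and a line at the mean of each group (n = 2). *egl-18*, *elt-6* and *ceh-16* are highest in the double mutant, *bro-1* and *nhr-73* are highest in *set-25*, and *nhr-25* lies above N2 in both single mutants and below N2 in the double mutant.

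The double mutant was next set against each single mutant, which asks what loss of the other enzyme added. Against *met-2*, 0 of 10 members were called (8.44% of all genes were), with 5 members at an unadjusted p under 0.05 and 0 called by DESeq2. At an FDR under 0.01 alone 1 of 10 was lower, *nhr-25* (-1.17 ± 0.167, edgeR FDR = 0.00174), and none higher, where 6.31% of all genes were lower and 6.23% higher. Against *set-25*, 1 of 10 was called lower, *nhr-73* (-1.69 ± 0.302, edgeR FDR = 0.002), where 1.80% of all genes were called lower. That call was lost without *set-25* replicate 1 and without double mutant replicate 1.

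At an FDR under 0.01 alone 4 of 10 members were lower in the double mutant than in *set-25* and none higher, where 13.2% of all genes were lower and 19.5% higher. They were *nhr-73*, *nhr-25* (-1.46 ± 0.168, edgeR FDR = 0.000218), *bro-1* (-0.82 ± 0.132, edgeR FDR = 0.00114) and *rnt-1* (-0.98 ± 0.226, edgeR FDR = 0.00709). All 4 lay below both *set-25* libraries in both double mutant libraries on the CPM scale. The 10 members had a median fitted change of -0.39 in this comparison, against 0.21 over all genes tested. *ajm-1* (-0.57 ± 0.152, edgeR FDR = 0.013) just missed and was at -0.04 on library totals.

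The interaction tests whether losing SET-25 had a different effect in *met-2* cells than in N2 cells. It is the log2 change of the double mutant over *met-2* minus that of *set-25* over N2, and it was called on FDR alone. Of the 10 members, 4 had a negative interaction at an FDR under 0.01 and none a positive one, where 11.1% of all genes were negative and 16.3% positive. *nhr-25* was the largest, at -2.05 ± 0.235 (95% interval -2.58 to -1.51, edgeR FDR = 0.000231). The others were *nhr-73* at -1.78 ± 0.422 (edgeR FDR = 0.00912), *ajm-1* at -1.12 ± 0.215 (edgeR FDR = 0.00329) and *bro-1* at -0.97 ± 0.186 (edgeR FDR = 0.00328). *rnt-1* was at -1.31 ± 0.320 and missed (edgeR FDR = 0.0104).

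Each of the 4, which were selected for a negative interaction, carried the same pattern of signs. Set against N2, *set-25* cells had a positive fitted change, and set against *met-2*, double mutant cells had a negative one. For *nhr-25* the values were -1.17 on the *met-2* background and 0.88 on the N2 background. For *nhr-73* they were -0.78 and 0.99, for *ajm-1* -0.43 and 0.68, and for *bro-1* -0.31 and 0.66. On the *met-2* background only *nhr-25* passed an FDR of 0.01. The others missed it there (edgeR FDR = 0.0865 for *nhr-73*, 0.065 for *ajm-1* and 0.112 for *bro-1*). The *bro-1* difference on the *met-2* background turned to 0.06 on library totals, and that of *ajm-1* shrank to -0.07. The interaction of *nhr-25* held an FDR under 0.01 in all 12 alternatives, with a highest value of 0.00168. On library totals without TMM scaling *bro-1*, *ajm-1* and *nhr-73* lost their calls (edgeR FDR = 0.157, 0.0732 and 0.0433), and with either *met-2* library left out only *nhr-25* was called. *nhr-73* kept its call in 3 of the 12.

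For the GATA genes, *ceh-16* and *lin-22* the interaction was positive and missed the threshold. *ceh-16* was nearest, at 0.61 with a 95% interval of -0.01 to 1.23 (edgeR FDR = 0.0985), and on library totals it was called (1.28, edgeR FDR = 0.00704). The intervals were -0.31 to 0.66 for *elt-1*, -0.40 to 0.93 for *egl-18*, -0.28 to 0.68 for *elt-6* and -0.71 to 1.67 for *lin-22*.

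**Figure D3:**
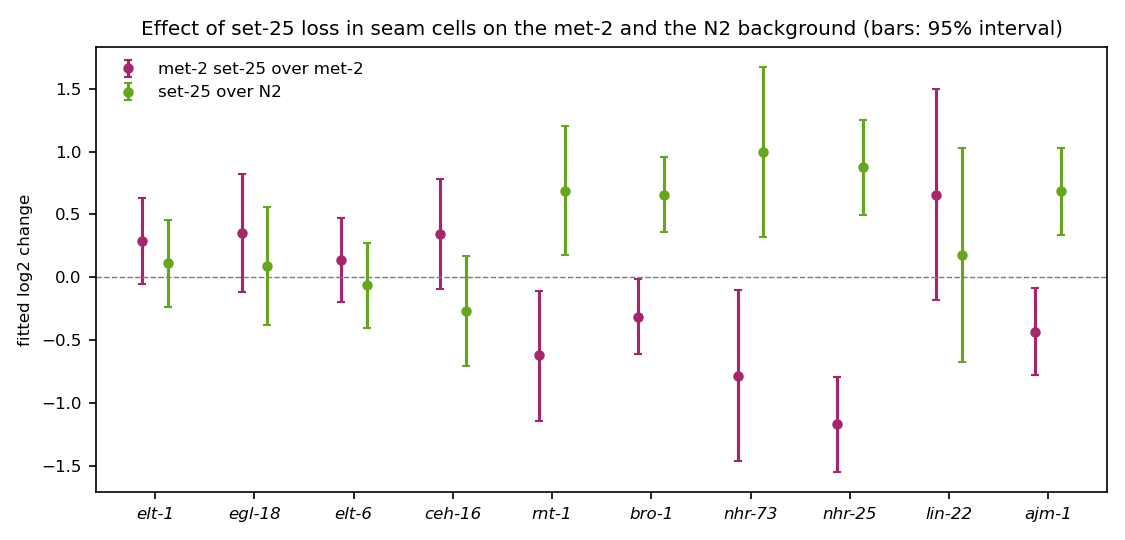
Fitted log2 change on loss of *set-25* in seam cells, in the double mutant over *met-2* and in *set-25* over N2, with bars for the 95% interval. The pairs of *rnt-1*, *bro-1*, *nhr-73*, *nhr-25* and *ajm-1* lie on opposite sides of 0, with *nhr-25* farthest apart at -1.17 and 0.88, and those of *ceh-16* (0.34 and -0.27) and *elt-6* (0.14 and -0.06) do so in the other direction.

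**Figure D4:**
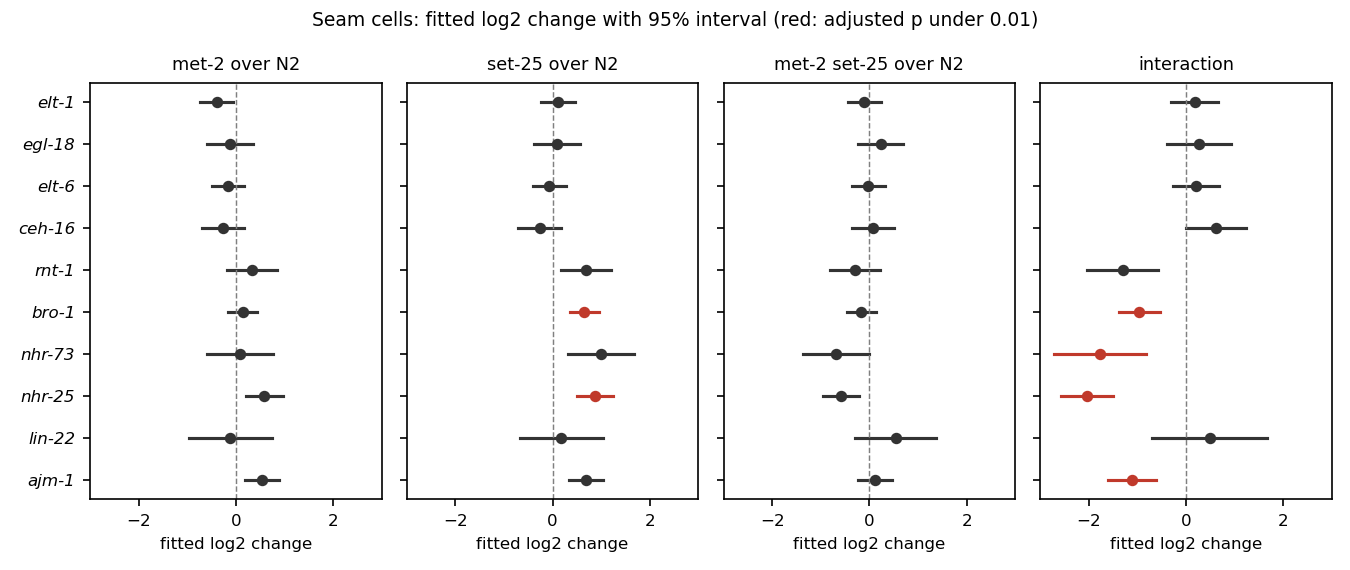
Fitted log2 change with its 95% interval for each gene in seam cells of *met-2*, *set-25* and the double mutant over N2, and for the interaction of the 2 mutations. Red marks an FDR under 0.01, which holds for *bro-1* and *nhr-25* in *set-25* and for *bro-1*, *nhr-73*, *nhr-25* and *ajm-1* in the interaction.

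Other features of the seam libraries moved with these genotypes. The marker counts in this paragraph are at an FDR under 0.01. By that rule 19.5% of all genes tested were higher and 13.2% lower in the double mutant against *set-25* cells. In *set-25* cells against N2, 4.61% were higher and 10.6% lower. Summed hypodermal markers were at 45060 and 44490 CPM in *met-2* cells, 54080 and 49240 in *set-25* cells, and 19440 and 23800 in the double mutant, against 32130 and 33560 in N2. The sum came mostly from the collagen genes *sqt-3* and *sqt-1*, and other markers of the list went against it: in the double mutant against *set-25* cells, 3 of 11 tested were higher at an FDR under 0.01 (*elt-3*, *col-12* and *col-10*) and 4 lower, and the median interaction of the 11 was 0.01. Of the 12 markers *bli-1* was at or near 0 in all 8 libraries. Summed body wall muscle markers, with 11 of 12 above 1 CPM in 7 of the 8 libraries and 12 in the other, were at 2787 and 3557 CPM in the double mutant and at 4471 to 4776 in the single mutants, against 3260 and 3290 in N2, but this sum was mostly the myosin gene *unc-54*, at 1869 and 2270 CPM in the double mutant, against 2615 and 2541 in N2. By gene, 9 of 11 tested muscle markers were higher and 1 lower in the double mutant than in *set-25* cells, with a median of 0.96 (0.21 over all genes). Summed intestinal markers were at 497 and 673 CPM in the double mutant, 60.1 and 41.2 in *set-25* cells and 151 and 78.6 in *met-2* cells, against 233.5 and 152 in N2, with 4 to 7 of 9 above 1 CPM, and 5 of 8 tested were higher in the double mutant than in *set-25* cells. Neuronal markers were higher for 7 of 11 and lower for 2 in that same comparison, and in *set-25* against N2 they were lower for 4 of 11 and higher for 2. Germline markers summed to 975 to 1002 CPM in the double mutant, 489 to 502 in *set-25* cells and 611 to 616 in *met-2* cells, against 438 to 488 in N2, with 6 of 11 tested higher in the double mutant than in *set-25* cells. The study reports germline genes among those derepressed in *met-2* seam cells. Here 5 of the 11 were higher in *met-2* cells than in N2, where 2.57% of all genes were. The moult regulator gene *nhr-23*, looked at after its values were seen, was at 391 and 348 CPM in the double mutant, 169 and 59.4 in *set-25* cells and 160.1 and 147 in *met-2* cells, against 259 and 206 in N2, with no change past the threshold (edgeR FDR = 0.0434 for the interaction). The moulting gene *mlt-10*, also chosen after its values were seen, was at 71.9 and 69.7 CPM in the double mutant, 483 and 552 in *set-25* cells and 345 and 319 in *met-2* cells, against 375 and 333 in N2. Its fitted log2 change in the double mutant over N2 was -2.57 ± 0.119 (edgeR FDR = 9.76e-06). The interaction of *mlt-10* was -3.44 ± 0.163 (edgeR FDR = 1.95e-05), and both were called. The part of cell makeup and of moult stage in the changes of *nhr-25*, *nhr-73*, *bro-1* and *ajm-1* was not tested.

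Genes that work with the seam identity factors were taken from 4 lists. Their counts at an FDR under 0.01 are to be read against all genes tested, of which 3.40% were lower in *met-2* cells, 4.61% higher and 10.6% lower in *set-25* cells, 19.5% higher and 13.2% lower in the double mutant against *set-25* cells, and 16.3% positive and 11.1% negative in the interaction. Of 12 genes for epidermal fate and fusion, 1 was lower in *met-2*, 2 were lower and 1 higher in *set-25*, and 0 passed in the double mutant against N2 at an FDR under 0.01. *elt-3*, a GATA factor of the hypodermis, had 11.5 and 8.52 CPM in *met-2* cells, 5.38 and 1.76 in *set-25* cells, and 113 and 70.4 in the double mutant, against 54.4 and 49.3 in N2. Its fitted change was -2.25 ± 0.393 in *met-2* (edgeR FDR = 0.00666) and -3.56 ± 0.429 in *set-25* (edgeR FDR = 0.000639), and its interaction was 6.37 ± 0.585 (edgeR FDR = 9.05e-05). *eff-1*, the cell fusogen that joins epidermal cells, had 9.57 and 9.37 CPM in *met-2* cells, 3.21 and 1.28 in *set-25* cells, and 63.4 and 48.6 in the double mutant, against 24.8 and 16.8 in N2, with an interaction of 5.10 ± 0.491 (edgeR FDR = 0.000108). *bed-3*, a BED-type zinc finger gene, was opposite in sign, with an interaction of -2.79 ± 0.297 (edgeR FDR = 0.000164). In the interaction 2 of these 12 were positive and 1 negative, with a median of 0.01, against 0.18 over all genes.

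Of 24 cell cycle genes, 0 passed in *met-2* and in the double mutant against N2, and 1 was higher and 1 lower in *set-25*. The called one was *cki-1*, the inhibitor of cyclin-dependent kinases, at 12.2 and 8.61 CPM in *set-25*, against 43.5 and 36.3 in N2 (-1.64 ± 0.190, edgeR FDR = 0.000548). In the double mutant against *set-25*, 7 of 24 were lower and 2 higher with a median of -0.72, against 0.21 over all genes. *cki-1* (1.84 ± 0.190, edgeR FDR = 0.000131) and *cdc-25.2* (2.07 ± 0.372, edgeR FDR = 0.00205) were the 2 that rose. The replication and cyclin genes that fell, such as *cyd-1* (-1.31 ± 0.150, edgeR FDR = 0.000211), did not reach 2-fold on library totals. In the interaction 4 of 24 were negative and 3 positive, with a median of -0.81, where 11.1% and 16.3% of all genes were.

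Of 25 genes of Wnt/β-catenin asymmetry, 0 passed in *met-2* and in the double mutant against N2, and 1 was higher in *set-25* (*bar-1*, a β-catenin, below 2-fold). In the double mutant against *set-25*, 5 were higher and 3 lower, which is near the share over all genes (19.5% and 13.2%), with a median of 0.37 against 0.21 over all genes. Of the 3 lower, 1, *kin-19*, was at 0.06 on library totals. The 5 were the Wnt genes *lin-44* (2.89 ± 0.371, edgeR FDR = 0.000363) and *cwn-1*, the Wnt secretion gene *mig-14* (2.07 ± 0.310, edgeR FDR = 0.000793), the Ror receptor gene *cam-1* (1.49 ± 0.243, edgeR FDR = 0.00123) and *vang-1*. *lin-44* had 54.02 and 25.3 CPM in the double mutant and 3.70 and 3.57 in *set-25*, against 10.6 and 17.4 in N2. In the interaction 5 of 25 were positive and 2 negative, where 16.3% and 11.1% of all genes were.

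Of 17 other apical junction genes, 0 passed in *met-2* and in the double mutant against N2, and 1 was higher in *set-25* (*erm-1*, below 2-fold). In the double mutant against *set-25* the cell adhesion gene *sax-7* was called higher (0.80 ± 0.156, edgeR FDR = 0.00303, 1.35 on library totals), and 2 genes, *eat-20* and *erm-1*, were lower at the FDR without reaching 2-fold. Their interactions were 1.00 for *sax-7*, -1.16 for *eat-20* and -0.86 for *erm-1* (edgeR FDR = 0.00642, 0.00487 and 0.00784). In the interaction 1 of 17 was positive and 2 negative, which is near or under the share over all genes (16.3% and 11.1%). The median of the list there was -0.24, against 0.18 over all genes.

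In muscle the seam identity genes were scarce in all genotypes. Only *rnt-1* and *ajm-1* passed the filter on low counts, and 0 of 2 were called in *met-2*, *set-25* or double mutant muscle against N2 muscle by edgeR or by DESeq2. Of all 9167 genes tested, 2.24% were called in *met-2* cells, 0% in *set-25* cells and 2.56% in double mutant muscle. For *set-25* muscle 518 genes had an unadjusted p under 0.05, and DESeq2 called 8 genes. *rnt-1* had 4.02 and 6.63 CPM in *met-2* cells, 8.18 and 7.37 in *set-25* cells, and 3.72 and 4.42 in the double mutant, against 5.31 and 2.57 in N2 muscle. The *set-25* libraries were the 2 highest of the 8, with a fitted change of 1.05 ± 0.429 and an unadjusted p of 0.0316 (edgeR FDR = 0.856). *ajm-1* ranged over 1.01 to 3.97 CPM, and its *set-25* libraries were the highest too, at 3.97 and 3.17 CPM. The next library, of the double mutant, was close at 3.10 CPM. The fitted change of *ajm-1* in *set-25* muscle was 0.71 ± 0.599 (edgeR, unadjusted p = 0.258). Its other groups overlapped in part.

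The other 8 genes had at most 14 counts in a muscle library, apart from the 45 counts of *nhr-25* in 1 N2 library. *ceh-16* and *lin-22* had 0 counts in all 8 muscle libraries, which allows up to 3 counts in each. *nhr-73* was at 0 in 7 of 8 and *bro-1* in 6 of 8, with at most 2 counts otherwise. *elt-6* had 7 and 6 counts in *met-2* cells, 6 and 0 in *set-25* cells, and 8 and 7 in the double mutant, against 0 and 0 in N2 muscle. In the fit without a filter its unadjusted p was 0.0341, 0.0776 and 0.027 in the 3 mutants, and none passed adjustment (edgeR FDR = 0.427, 0.981 and 0.268).

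In muscle no seam identity gene was called on degradation of MET-2 by auxin. The filter passed 6 members, and 0 of 6 were called by edgeR or DESeq2, where 1.73% of all 11393 genes tested were, and 0 of the 6 had an unadjusted p under 0.05. *egl-18* had 5.83 and 4.21 CPM with auxin, against 4.44 and 5.88 without. *ajm-1* had 11.2 and 7.83 CPM with auxin, against 8.69 and 12.8 without, and *rnt-1* 7.39 and 5.13, against 5.21 and 3.64. The groups overlapped for all 3. *nhr-25* had 1.52 and 0.673 CPM with auxin, against 1.37 and 3.27 without (-1.09, 95% interval -2.21 to 0.04, edgeR FDR = 0.434). Summed hypodermal markers were at 311 and 314 CPM with auxin, against 723 and 1081 without, and their part in the *nhr-25* value was not tested. *elt-6* had 3.12 and 2.10 CPM with auxin, against 1.19 and 1.74 without, with no overlap (0.77, -0.16 to 1.70, edgeR FDR = 0.534). *elt-1* had 16 and 17 counts with auxin, against 16 and 19 without. *bro-1* had 10 and 1 counts with auxin, against 4 and 11 without, and *ceh-16*, *nhr-73* and *lin-22* had at most 3 in any of the 4 libraries.

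**Figure D5:**
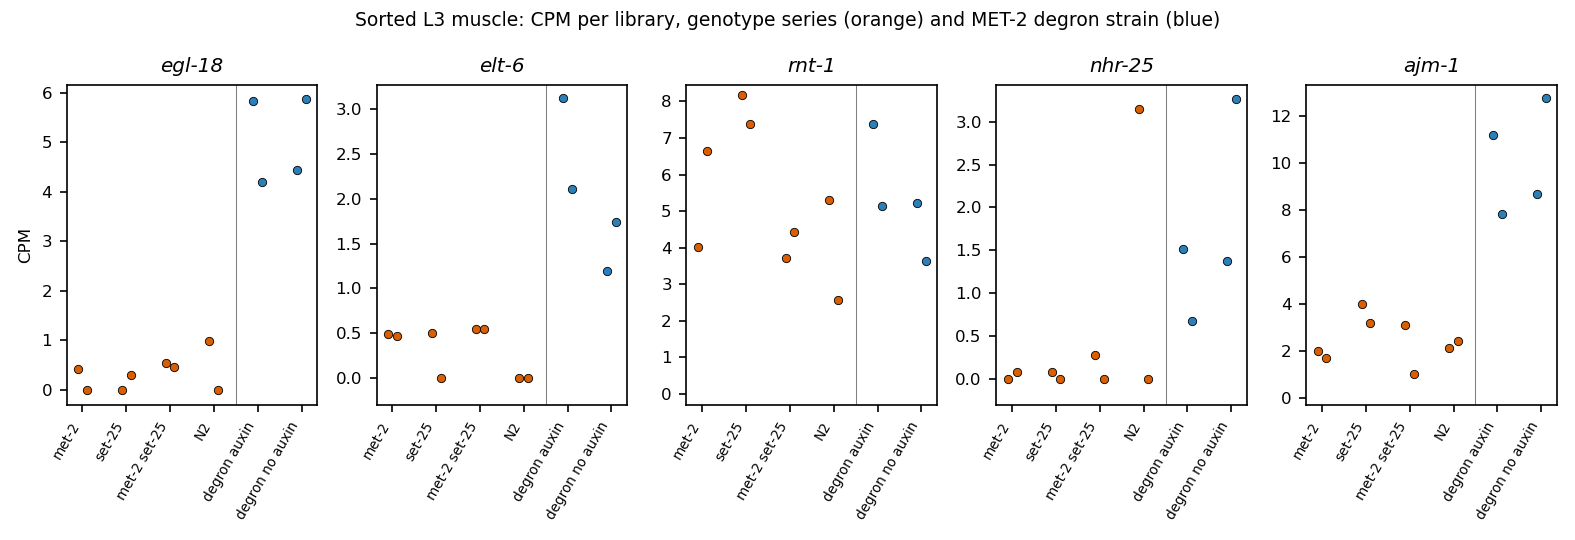
CPM of the 5 genes with the most muscle counts in sorted L3 muscle, with 1 point per library, for *met-2*, *set-25*, the double mutant and N2 (orange) and for the MET-2 degron strain with and without auxin (blue). *rnt-1* spans 2.57 to 8.18 CPM in the genotype series, while *elt-6* stays under 0.6 CPM there and *nhr-25* is above 1 CPM in a single N2 library.

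Across all 22 libraries, the genes most like each member by Pearson's r of log2(CPM + 1) were found among 14613 genes with at least 10 counts in 2 libraries. The members other than *rnt-1* share the gap between seam and muscle libraries, so the correlations are a description only. The 3 nearest were *nhr-270*, *clc-7* and F21A3.3 for *elt-1* (r of 0.994 to 0.996), *dpy-9*, R148.5 and *dpy-7* for *egl-18* (0.990 to 0.992), *dlg-1*, T04C12.8 and F32H2.6 for *ceh-16* (0.991 to 0.992), *bus-2*, *nhr-161* and *nhr-148* for *bro-1* (0.996 to 0.997) and *rml-4*, *acn-1* and *fasn-1* for *ajm-1* (0.994 to 0.995). For *elt-6* they were *pqn-83*, C25G6.4 and R03H10.2, for *nhr-73* *nhr-245*, *nstp-8* and ZK1225.1, and for *nhr-25* R09B5.11, C34C6.3 and *bus-19*. *ceh-16* was among the 3 nearest to *lin-22* (r of 0.982), with Y43F8B.22 and F32H2.6. *rnt-1* stood apart, with *pgm-1*, *nhr-71* and *cebp-1* at r of 0.766 to 0.802.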

How the data were processed

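The deposited values are raw counts per gene, made by the authors, for 22 libraries in 3 tables of 20392 genes (seam cells, muscle with non-muscle cells, degron muscle), with an exonic width per gene. Libraries were Smart-Seq2. Per the methods of the study, reads were aligned to ce10 with hisat2 through QuasR, and uniquely mapped reads on the gene's strand were counted over exons of the WS220 annotation, although Smart-Seq2 usually keeps no strand. The labels name 2 replicates per group, which gave the groups. That replicates were biologically independent is stated in the figure legends of the study, although its methods give more replicates per sort. Names came from a current gene table (94.1% of IDs matched), and no coordinates or sequences are given, since the reference used is of another build.

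CPM is counts over the library total, and RPKM divides that by the deposited width. Tests used edgeR 4.0.16 (R 4.3.3) quasi-likelihood fits with TMM factors, filterByExpr and no covariate, with the 4 genotypes of a tissue fitted together. The 3 N2 populations were joined by gene ID. A gene was called at an adjusted p under 0.01 and a log2 change over 1 on log2(count scaled to the mean library total + 8). Interactions were called on adjusted p alone. SE is the fitted change over the square root of F, and intervals are 95% from the t distribution of that fit. The floor was 3 counts per library. DESeq2 1.42.0, other scalings, filters and fold rules, and leaving out each library were alternatives. The code was tested on simulated data.

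The 10 genes and all gene lists were chosen with earlier results of these data known. All 10 are named, with the called genes of largest log2 change from each list (at most 3 per list and seam comparison), a few further genes chosen after their values were seen, and the 3 genes most like each member. Chromosome and overlap are from WBcel235 names.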

Additional observations from a re-analysis of the deposited data

Results flagged for a closer look

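In seam cells the effect of losing *set-25* differed between the *met-2* and the N2 background for 4 of the 10 genes, by the interaction test of edgeR, where 11.1% of all genes had a negative interaction and 16.3% a positive one. On library totals, and with either *met-2* library left out, only *nhr-25* of these 4 kept its call. The fitted difference of the log2 changes was -2.05 for *nhr-25*, -1.78 for *nhr-73*, -1.12 for *ajm-1* and -0.97 for *bro-1*. For *nhr-25* both double mutant libraries lay below all 6 other seam libraries and all 4 single mutant libraries lay above N2.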

How the results depend on the processing

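The count of called members kept its main value in all alternatives for *met-2* and double mutant seam cells against N2 and for the muscle and auxin comparisons. With one library left out it was 0 to 1 for *set-25* against N2 seam cells, 0 to 1 for the double mutant against *set-25*, 1 to 4 for the interaction, 2 to 4 for N2 muscle against non-muscle cells and 4 to 6 for N2 seam against non-muscle cells (4 without either N2 seam library). With the fitted change for the 2-fold rule, the double mutant gave 1 call against *met-2* and 2 against *set-25*. On library totals the interaction had 2. No source used here says that replicate numbers pair the samples, and the correlation of their deviations was -0.283 to 0.184 (0.145 for N2 muscle and non-muscle cells). With the replicate number as a block, N2 muscle against non-muscle cells had 3 calls, and in the interaction the block exchanged *nhr-73* (FDR 0.0121) for *rnt-1* (FDR 0.00892). It moved no other count of members. With crossed numbers as a block, chosen after seeing the data, the auxin comparison had 0 members and 379 genes called, against 197 genes in the main fit. Of 876 single-gene values under the alternatives, 816 kept their call, 47 lost it and 13 gained it. None of the called values changed sign, and 42 uncalled values did, 10 of them on library totals. Counts over all genes moved more: without a low-count filter 1447, 2278, 932 and 2182 genes were called for *met-2*, *set-25* and double mutant cells over N2 and for double mutant over *met-2* cells (653, 1338, 363 and 1063 in the main fit), and with one library left out the lowest were 135 in *met-2* and 188 in the double mutant against *met-2*. The causes were not tested. Depth limits *lin-22* and *rnt-1*, at 48 to 196 counts per seam library, and all but *rnt-1* and *ajm-1* in muscle.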

Other observations

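Muscle of the degron strain held more transcript of several seam identity genes than muscle of the genotype series, with or without auxin. *egl-18* was at 4.21 to 5.88 CPM in its 4 libraries and at 0 to 0.978 CPM in the 8 muscle libraries of the genotype series. *ajm-1* was at 7.83 to 12.8 CPM and 1.01 to 3.97 CPM in the same sets, and *elt-1* at 0.657 to 1.43 CPM and 0 to 0.487 CPM. *rnt-1*, at 3.64 to 7.39 CPM and 2.57 to 8.18 CPM, overlapped. Summed hypodermal markers were at 311 to 1081 CPM in the degron libraries and 34.2 to 91.5 CPM in the genotype series. Markers of some other cell types were higher as well, with neuronal sums of 189 to 262 and 31.4 to 62.7 CPM, intestinal sums of 338 to 458 and 88.4 to 124 CPM, pharyngeal sums of 61.9 to 94.95 and 23.15 to 46.6 CPM, and glial sums of 6.39 to 9.28 and 0.154 to 2.27 CPM. Coelomocyte sums (31.5 to 42.6 and 6.28 to 43.5 CPM) and germline sums (326 to 750.5 and 162 to 2393 CPM) overlapped. Body wall muscle sums overlapped too, at 99790 to 107100 and 104800 to 142000 CPM. The 2 sets come from separate experiments and strains, which cannot be told apart here, and the difference was not tested.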
